A study of Mus musculus with 4 samples.

Results

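Accessible chromatin was examined at 10 genes that are used as markers of hematopoietic stem cells (HSCs): Ly6a, Esam, Procr, Cd34, Eng, Cd9, Slamf1 (the gene of CD150), Alcam, Fgd5 and Robo4. The regions were chosen by position alone. They were the ATAC-seq peaks of the WT or the KO list that overlapped a gene body with 20 kb added on each side, in mm10. This gave 46 regions in 860 kb, out of 45475 regions in the whole data. Of the 46 regions, 18 were promoter regions and 28 were distal. ATAC-seq uses a transposase that cuts open chromatin, so that reads pile up where DNA is accessible.

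The cells were HSCs sorted from bone marrow of adult C57BL/6 mice, with 5000 cells per sample. WT mice had the genotype Med23floxp/flowp and no cre, and KO mice had the genotype Mx1-cre;Med23floxp/flowp. Med23 is a subunit of the mediator complex, which links transcription factors to RNA polymerase II. According to the study's methods, deletion was induced with poly(I:C), to which the interferon-responsive Mx1 promoter of the cre transgene answers, and the controls were littermates without cre. The Mx1 promoter is not limited to HSCs. The study describes both genotypes as examined after poly(I:C) in its blood counts, and its text on the ATAC-seq samples does not say whether the WT mice of this experiment received it. Ages are given only as adult. The labels give 4 samples, 2 of each genotype, but point both samples of a genotype to a single peak list. What could be compared was 1 list from WT with 1 list from KO. No value below has a replicate check, none was tested between genotypes, and the intervals cover counting error only.

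HSCs are recognized by combinations of surface proteins and not by any single one. Ly6a encodes Sca-1, the S in the LSK gate (lineage-negative, Sca-1-positive, c-Kit-positive), and Slamf1 encodes the SLAM family receptor CD150. Cd34 encodes a sialomucin that mouse long-term HSCs lack or carry at low levels. The labels give the sort as CD150+CD34-CD48- within LSK cells, and the study's methods give CD150+CD48- within LSK cells. The proteins of Ly6a and Slamf1, and in the labels also that of Cd34, therefore took part in choosing the cells of both genotypes. Esam, Robo4, Eng and Procr are shared by HSCs and endothelium. Esam encodes a junctional adhesion molecule, Robo4 a roundabout receptor, Eng (endoglin) a co-receptor for TGF-beta ligands and Procr the receptor of protein C. Cd9 encodes a tetraspanin and Alcam the adhesion molecule CD166. Fgd5 encodes a guanine nucleotide exchange factor that lies inside the cell and is used as a reporter gene for HSCs. The study names Ly6a and Esam among the transcripts that were lower in KO cells, which is why both were included.

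The height of a peak is given as the summit pileup, the number of overlapping reads or fragments at its highest point. It was recovered as a whole number from the deposited fold enrichment and −log10 p. Over all peaks the median pileup was 18 (WT) and 19 (KO), over a background of 1.19 and 1.13. The number of reads behind each list is unknown. Start sites of HSC markers had peaks at 6 of 6 genes in WT and 5 of 6 in KO, where Hoxa9 had none. Mature T cell, B cell, granulocyte and monocyte, and erythroid markers had peaks at 5 of 17 genes in WT and 4 of 17 in KO. Megakaryocyte markers had peaks at 3 of 4 genes in WT and 4 of 4 in KO, and endothelial markers at 4 of 5 in each list, with pileups of 10 to 20. For comparison, 36.2% of all 21755 protein-coding genes had no start-site peak in either list. The summed pileup of the 5 endothelial markers was 64 in WT and 57 in KO, with Cdh5 lacking a peak in KO and Pecam1 lacking one in WT. The part of such cells in the values below was not tested. The start site of the targeted gene, Med23, had a pileup of 64 in WT and 85 in KO, and this single peak in the gene does not show whether the deletion took place.

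Several sequences that the results turn on are printed here in lower case, 5′ to 3′, with motif matches on either strand in capitals. The first group is the 200-bp summit window of the only Ly6a region, of the Esam region upstream of its start sites, and of the strongest distal region at Esam, Fgd5, Robo4, Eng and Procr, all from the plus strand of GRCm38.p6. They lie at chr15:74988655-74988854, chr9:37527091-37527290, chr9:37554418-37554617, chr6:91972291-91972490, chr9:37420794-37420993, chr2:32638066-32638265 and chr2:155742765-155742964 in this order.
Ly6a, only region: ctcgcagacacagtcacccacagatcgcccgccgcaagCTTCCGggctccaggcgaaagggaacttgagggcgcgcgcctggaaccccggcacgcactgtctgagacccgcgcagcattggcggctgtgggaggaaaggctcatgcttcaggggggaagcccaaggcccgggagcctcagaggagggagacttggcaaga
Esam, upstream of the start sites: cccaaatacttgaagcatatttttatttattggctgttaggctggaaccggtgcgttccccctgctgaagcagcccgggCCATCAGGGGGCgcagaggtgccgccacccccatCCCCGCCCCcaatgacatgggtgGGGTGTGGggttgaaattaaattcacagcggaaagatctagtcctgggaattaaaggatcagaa
Esam, strongest distal: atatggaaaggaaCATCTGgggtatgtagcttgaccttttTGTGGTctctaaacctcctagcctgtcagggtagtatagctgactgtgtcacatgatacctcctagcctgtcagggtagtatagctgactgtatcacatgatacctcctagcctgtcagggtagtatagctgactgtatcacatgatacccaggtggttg
Fgd5, strongest distal: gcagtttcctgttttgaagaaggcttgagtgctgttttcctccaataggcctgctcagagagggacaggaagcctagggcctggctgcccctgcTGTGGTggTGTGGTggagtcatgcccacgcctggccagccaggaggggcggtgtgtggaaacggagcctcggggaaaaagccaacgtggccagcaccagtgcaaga
Robo4, strongest distal: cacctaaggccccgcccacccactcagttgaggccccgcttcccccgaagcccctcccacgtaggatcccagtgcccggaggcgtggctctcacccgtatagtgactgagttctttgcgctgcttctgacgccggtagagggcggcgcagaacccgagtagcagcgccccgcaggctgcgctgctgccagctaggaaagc
Eng, strongest distal: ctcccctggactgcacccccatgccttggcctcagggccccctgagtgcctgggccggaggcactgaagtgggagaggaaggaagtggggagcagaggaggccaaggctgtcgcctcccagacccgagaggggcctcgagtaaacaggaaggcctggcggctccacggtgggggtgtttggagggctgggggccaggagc
Procr, strongest distal: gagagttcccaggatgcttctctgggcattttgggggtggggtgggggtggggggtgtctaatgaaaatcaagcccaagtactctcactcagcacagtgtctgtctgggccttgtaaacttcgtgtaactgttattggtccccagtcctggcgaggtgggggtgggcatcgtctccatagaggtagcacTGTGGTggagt

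The capitals mark an ETS match (CGGAAG, read from the minus strand) at Ly6a, and a CTCF match, an SP match (GGGGCGGGG, minus strand) and a KLF match (GGGTGTGG) upstream of Esam. In the distal window of Esam they mark an E-box match (CATCTG) and a RUNX match (TGTGGT). The Fgd5 window held 2 RUNX matches and the Procr window 1, while the windows of Robo4 and Eng held none of the 10 motifs searched. The distal Esam window held a tandem repeat, in which a word of 35 bases occurred 3 times. Of the 50-base words in that region, 1.83% occurred more than once in the genome.

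The second group is the part upstream of the annotated UTR in the RefSeq promoters (GRCm38.p6) of 4 genes, chosen after their values were seen. Cd9 and Fgd5 had start-site ratios past 1.5-fold, and Procr and Slamf1 had no start-site peak. RefSeq promoter entries matched 8 of the 10 genes, and Ly6a and Esam had none. The sequences lie at chr6:125494792-125495010 (minus strand), chr6:91978715-91978877, chr2:155750967-155751116 and chr1:171766882-171767126 (plus strand).
Cd9 promoter: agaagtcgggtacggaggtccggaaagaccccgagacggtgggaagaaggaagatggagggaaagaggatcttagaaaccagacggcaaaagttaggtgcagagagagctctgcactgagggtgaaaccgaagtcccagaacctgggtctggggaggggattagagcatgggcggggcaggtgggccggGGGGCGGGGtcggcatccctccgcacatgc
Fgd5 promoter: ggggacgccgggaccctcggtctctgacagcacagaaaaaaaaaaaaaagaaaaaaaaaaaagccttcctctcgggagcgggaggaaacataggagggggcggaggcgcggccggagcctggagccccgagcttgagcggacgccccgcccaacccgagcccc
Procr promoter: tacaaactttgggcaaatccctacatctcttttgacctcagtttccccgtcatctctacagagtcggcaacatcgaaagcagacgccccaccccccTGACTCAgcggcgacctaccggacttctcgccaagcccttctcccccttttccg
Slamf1 promoter: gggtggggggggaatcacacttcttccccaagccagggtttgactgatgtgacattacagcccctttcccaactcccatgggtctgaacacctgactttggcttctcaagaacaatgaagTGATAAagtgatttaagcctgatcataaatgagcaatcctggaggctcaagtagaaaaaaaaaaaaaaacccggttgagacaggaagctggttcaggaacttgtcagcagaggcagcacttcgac

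Here the capitals mark an SP match (GGGGCGGGG) at Cd9, an AP1 match (TGACTCA) at Procr and a GATA match (TGATAA) at Slamf1. Over all 32851 RefSeq promoters, 11.4% held an SP match, 5.20% an AP1 match and 18.6% a GATA match. These shares count whole entries, which reach past the printed parts. In their whole entries Cd9, Procr and Slamf1 also held an E-box match and Procr an ETS match, against 30.6% and 16.9% of all entries. A match describes the letters only.

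Promoter regions of the 10 genes were almost all present in both lists. A promoter region had a summit within 1000 bp of an annotated transcript start of any gene, and regions were unions of peaks that overlapped by at least 1 bp. Of the 18 promoter regions, 17 had peaks in both lists (94.4%, 95% Wilson interval 74.2 to 99.0), 0 only in WT and 1 only in KO. Over all 16589 promoter regions, 84.0% were in both lists, 8.25% only in WT and 7.74% only in KO. The KO-only region was at the start of Vsig2, 4.67 kb from the nearest Esam start site, with a pileup of 12. All 8 regions at the members' own start sites were in both lists.

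Distal regions differed more often between the lists, at the members as over the whole data. Of the 28 distal regions, 17 were in both lists (60.7%, 95% Wilson interval 42.4 to 76.4), 5 only in WT and 6 only in KO. Over all 28886 distal regions, 53.7% were in both lists, 23.7% only in WT and 22.6% only in KO. The WT-only regions had pileups of 7 to 16 and lay at Cd34 (1), Cd9 (1) and Alcam (3). The distal KO-only regions had pileups of 8 to 14 and lay at Eng (2), Cd9 (2) and Alcam (2). Every one of these pileups was below the median of its list, and the median over all regions of 1 list only was 10.0 in WT and 11.0 in KO. The plot of region classes shows the members beside 19 other surface genes and all regions.

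**Figure D1:**
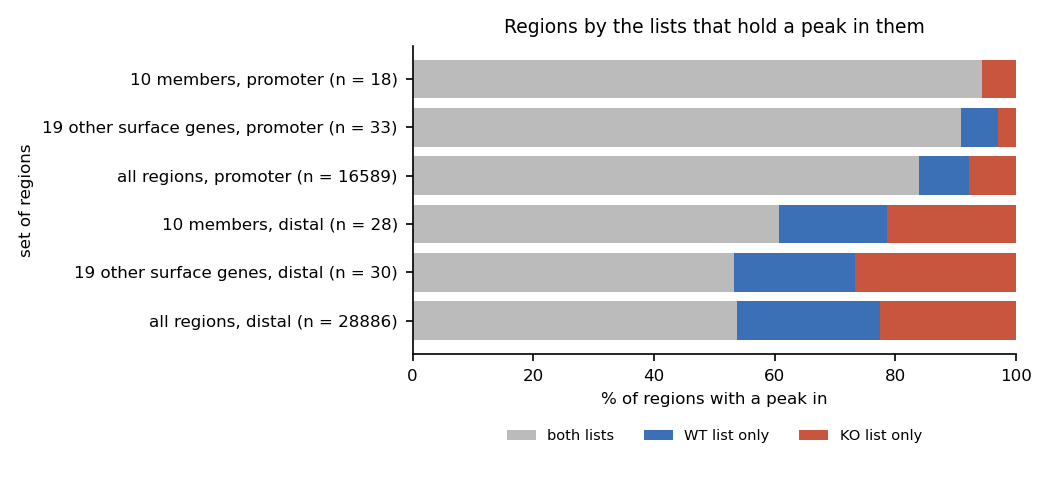
Share of promoter and distal regions (x axis, percent) with a peak in both lists (grey), only in WT (blue) or only in KO (red), for the 10 members, 19 other surface genes and all regions. Promoter regions were mostly shared in each set (94.4% at the members and 84.0% over all regions), and distal regions less so (60.7% and 53.7%).

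Ratios of KO to WT were taken in regions with exactly 1 peak of each list and were centred on the median of all 28909 such regions, where the raw KO to WT ratio was 1.058. At the members 33 regions had a ratio. On the centred log2 scale, 19 lay above 0 and 14 below, with a median of 0.13. The median was 0.05 at the 16 promoter regions, against -0.06 over all promoter regions, and 0.15 at the 17 distal regions, against 0.06 over all distal regions. Past 1.5-fold, 2 member promoter regions were higher in KO and 1 lower, against 3.95% and 7.99% of all promoter regions. Past the same limit, 1 member distal region was higher and 3 were lower, against 10.9% and 7.84% of all distal regions. The 95% interval lay above the median in 2 member regions and below it in 1, against 1.91% and 1.54% of all regions. The plot of ratios by region shows these intervals, and the plot of their spread shows the members within all shared regions.

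**Figure D2:**
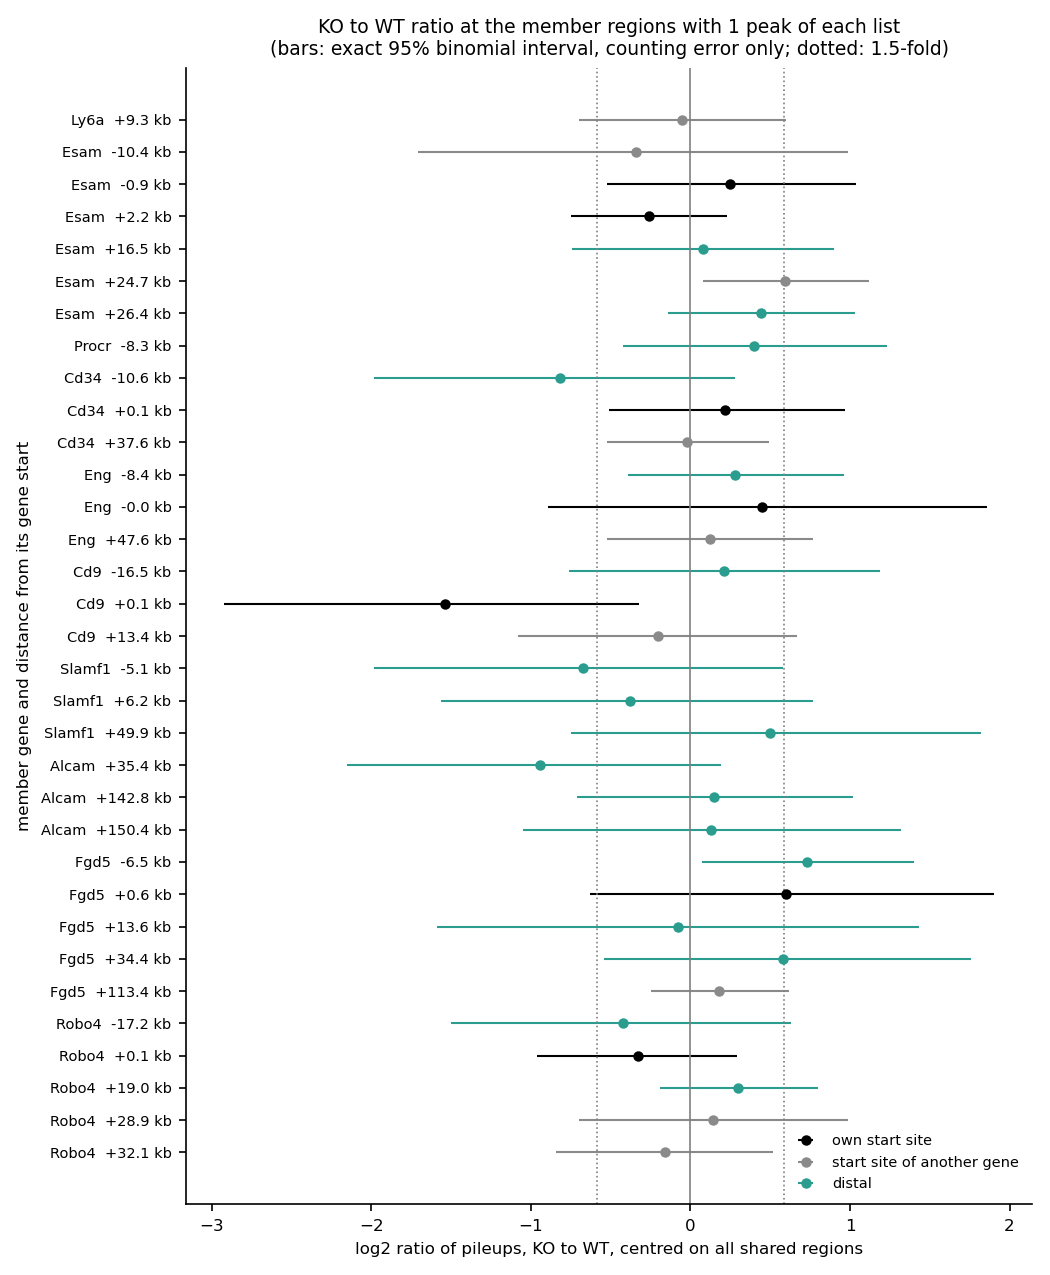
Centred log2 ratio of KO to WT summit pileup (x axis) for the 33 member regions with 1 peak of each list, by gene and distance from the gene start (y axis), with exact 95% binomial intervals. Only the Cd9 start site lies below 0 with its whole interval, and only the Nrgn start site in the Esam window (+24.7 kb) and the upstream Fgd5 region lie above it.

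**Figure D3:**
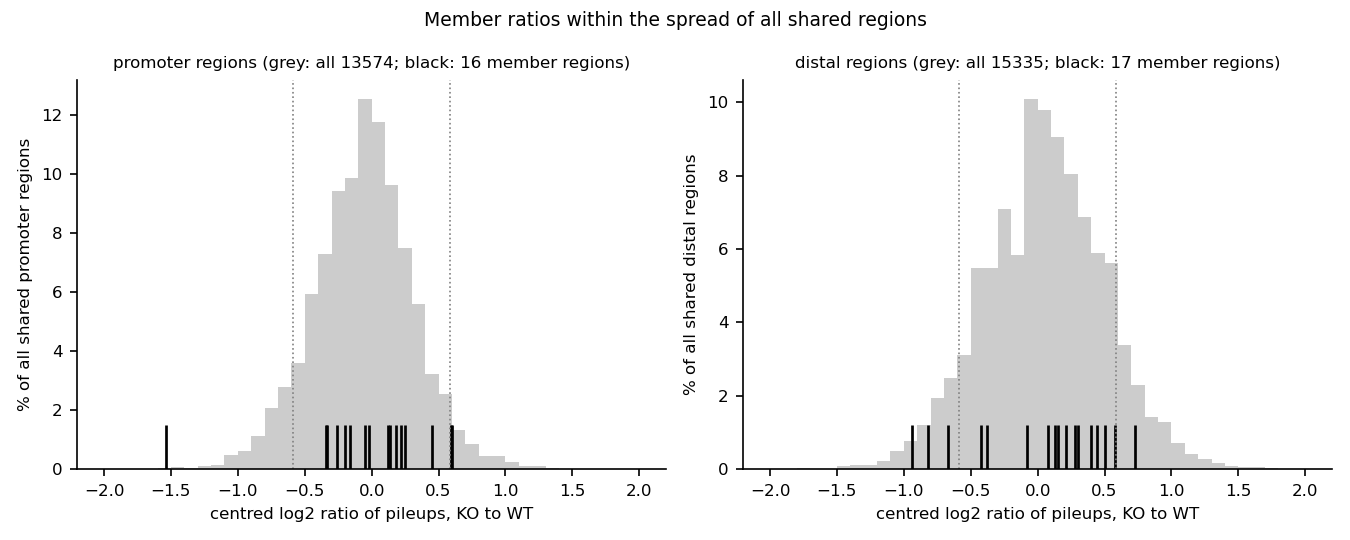
Distribution of the centred log2 ratio (x axis) over all shared promoter (13574) and distal (15335) regions in percent (grey bars), with the 16 and 17 member regions as black lines and 1.5-fold as dotted lines. The Cd9 start site, at -1.54, stands at the far left among promoter regions, and the other member promoter regions lie between -0.34 and 0.60.

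Among the genes of the sort markers, 2 had no peak at their own start sites in either list. Ly6a (ENSMUSG00000075602.10, chromosome 15, 74994877 to 74998031, minus strand) and Slamf1 (ENSMUSG00000015316.11, chromosome 1, 171767127 to 171801184, plus strand) lacked one, as did Procr. That is 3 of the 10 genes, and 36.2% of the 21755 protein-coding genes lacked one too. A missing peak in these lists does not show that a promoter is closed.

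The Ly6a window held a single region, at chr15:74988418-74989617, at the starts of the transcripts Gm8000 and Gm37042. It lay 8.88 kb downstream of the nearest Ly6a start site. The KO list had a pileup of 43 there and the WT list 42, for a centred log2 ratio of -0.05 (95% interval -0.70 to 0.60). The summits lay at the same base in both lists, and the pileups were nearly equal. Ly6a lies in a cluster of closely similar Ly6 genes. Of the 50-base words in its window, 26.0% occurred more than once in the genome, and within 1000 bp of the gene's start 45.0% did. In the other 9 windows this share was 1.34% to 7.96%, and at their starts 0% to 7.02%. How reads with several possible positions were handled is not stated, and the part of this in the missing Ly6a peak was not tested.

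Slamf1 had 3 distal regions, all with peaks in both lists and all low. The upstream region at chr1:171761822-171762785, 5.06 kb from the start, had a pileup of 15 in WT and 10 in KO, for a log2 ratio of -0.67 (-1.98 to 0.58). The intronic region, 6.17 kb inside the gene and the strongest of the 3, had 16 in WT and 13 in KO (-0.38, -1.56 to 0.77). The region beyond the gene's end, 49.9 kb from the start, had 10 in WT and 15 in KO (0.50, -0.75 to 1.82), and its summits lay far apart in the 2 lists. The 3 ratios pointed in both directions, and each interval included 0.

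Cd34 (ENSMUSG00000016494.9, chromosome 1, 194938819 to 194961279, plus strand) had a peak at its start site in both lists. The pileup was 30 in WT and 37 in KO, for a log2 ratio of 0.22 (-0.51 to 0.97). The upstream region at chr1:194927817-194928309, 10.6 kb from the start, was lower in KO, with 20 against 12, for a log2 ratio of -0.82 (-1.98 to 0.28). That is 1.76-fold after centring, but the interval included 0. The remaining regions in the window were a WT-only region behind the gene, with a pileup of 12, and the shared start site of A330023F24Rik and Gm16897, with 67 and 70.

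Esam had the most promoter regions of the 10 genes. Esam (ENSMUSG00000001946.14, chromosome 9, 37528078 to 37538319, plus strand) had 2 regions at its own start sites. The main region, at chr9:37529179-37531505 with its summit in an annotated Esam UTR, had a pileup of 78 in WT and 69 in KO, for a log2 ratio of -0.26 (-0.75 to 0.23). The upstream region, 0.887 kb before the start, had 27 in WT and 34 in KO (0.25, -0.52 to 1.04). The ratios of the pair of start-site regions thus lay on opposite sides of 0, and both intervals included it. The main region was wider in the KO list, at 2327 bp against 1421 bp in WT.

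Farther downstream of Esam the regions lay at the gene Nrgn, which encodes a neuronal calmodulin-binding protein. The region at the start of Nrgn, chr9:37551940-37553300, had a pileup of 52 in WT and 83 in KO, for a log2 ratio of 0.59 (0.08 to 1.12). The strongest distal region followed at chr9:37553952-37554873, with 44 in WT and 63 in KO (0.44, -0.14 to 1.03). Its sequence is the one printed above with the repeated word. Over the whole Esam window, 4 of 6 ratios lay above 0, and peaks covered 5168 bases (WT) and 7321 bases (KO).

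Robo4 (ENSMUSG00000032125.20, chromosome 9, 37401897 to 37415115, plus strand) lies on the same chromosome as Esam, and the windows of these genes do not overlap. Its start site had a pileup of 50 in WT and 42 in KO, for a log2 ratio of -0.33 (-0.96 to 0.29). Its strongest distal region was also the strongest distal region of all 10 genes. It lay at chr9:37420535-37421501, with its summit in a coding exon of Robo3, and had 63 in WT and 82 in KO (0.30, -0.19 to 0.80). All 5 regions of the window were in both lists, with 2 ratios above 0 and 3 below, from -0.42 to 0.30.

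Eng (ENSMUSG00000026814.16, chromosome 2, 32646595 to 32682669, plus strand) had a weak start-site peak, with 9 in WT and 13 in KO (0.45, -0.89 to 1.86). The region 8.43 kb upstream was higher than the start site in both lists, with 35 in WT and 45 in KO (0.28, -0.39 to 0.96). All 3 ratios in the Eng window lay above 0. The remaining one of them, 0.12 (-0.52 to 0.77), belonged to the start site of another gene, Fpgs. Both regions that were in 1 list only were in the KO list, each with a pileup of 12. None of the 3 intervals excluded 0.

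Procr (ENSMUSG00000027611.12, chromosome 2, 155751117 to 155755471, plus strand) had 1 region in its window and none at its start. The region lay 8.25 kb upstream at chr2:155742245-155743575. Its pileup was 23 in WT and 32 in KO, for a log2 ratio of 0.40 (-0.42 to 1.23). Its printed window has a RUNX match near its end.

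Cd9 had the start site with the lowest ratio of the 33 regions. Cd9 (ENSMUSG00000030342.8, chromosome 6, 125460266 to 125494791, minus strand) had a pileup of 22 in WT and 8 in KO at its start, chr6:125494355-125495239, which it shares with the transcript Gm26728. After centring, the KO pileup was 2.91-fold lower, a log2 ratio of -1.54 (-2.92 to -0.32). The peak was 885 bp wide in WT and 315 bp in KO, and its −log10 q was 10.5 in WT and 2.62 in KO. The local background beside it was 2.84 in WT and 1.40 in KO, so that the deposited fold enrichment differed less, with 6.00 in WT and 3.74 in KO. The part of this lower background in the ratio was not tested.

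The other regions at Cd9 did not share that ratio. The region in the gene at the start of Gm28809 had 25 in WT and 23 in KO (-0.20, -1.08 to 0.67). The strongest distal region, 16.5 kb upstream, had 18 in WT and 22 in KO (0.21, -0.76 to 1.19). The 3 regions in 1 list only were 1 WT-only region with a pileup of 9 and 2 KO-only regions with 8 and 12.

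Alcam (ENSMUSG00000022636.13, chromosome 16, 52248996 to 52454074, minus strand) had the highest start-site pileup of the 10 genes. It was 212 in WT and 188 in KO, above 99.8% of WT and 99.5% of KO promoter peaks. The WT list had 2 peaks in this region and the KO list 1, so no ratio was taken. Alcam is also the longest of the 10 genes, and its 8 distal regions were far lower, at 7 to 27. The strongest distal region lay in an intron, 143 kb from the gene start and 14.4 kb upstream of the nearest annotated Alcam start site. It had 23 in WT and 27 in KO (0.15, -0.71 to 1.02). The intronic region at chr16:52417973-52419073 had 20 in WT and 11 in KO, for a log2 ratio of -0.94 (-2.15 to 0.19). Of the 8 distal regions, 3 were only in WT and 2 only in KO, against 23.7% and 22.6% of all distal regions.

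Fgd5 (ENSMUSG00000034037.14, chromosome 6, 91978878 to 92076004, plus strand) had the most ratios past 1.5-fold. The strongest distal region lay 6.49 kb upstream at chr6:91972048-91973014, and its pileup was 32 in WT and 56 in KO. After centring, this was 1.65-fold higher in KO, for a log2 ratio of 0.73 (0.07 to 1.40). Its sequence, printed above, holds a pair of adjacent RUNX matches. The start-site region, with its summit in an intron, had 10 in WT and 16 in KO, for a log2 ratio of 0.60 (-0.63 to 1.90). The region 34.4 kb inside the gene had 12 and 19 and lay just under the limit (0.58, -0.54 to 1.76). Of the 5 ratios in the Fgd5 window, 4 lay above 0, from 0.18 to 0.73, and the remaining one was -0.08. The ratio of 0.18 (-0.25 to 0.62) belonged to the start site of another gene, Nr2c2, 113 kb from the Fgd5 start. All 5 regions were in both lists.

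The map of summits gives the position of every region. Of the 10 windows, WT peaks covered 34554 bases and KO peaks 35797. The difference, KO less WT, was positive at 6 genes, from 36 bases at Ly6a to 2153 at Esam. It was negative at 4 genes, from -331 at Cd9 to -1272 at Cd34. No such difference over all genes is given here, so these counts of genes have no share to be read against.

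**Figure D4:**
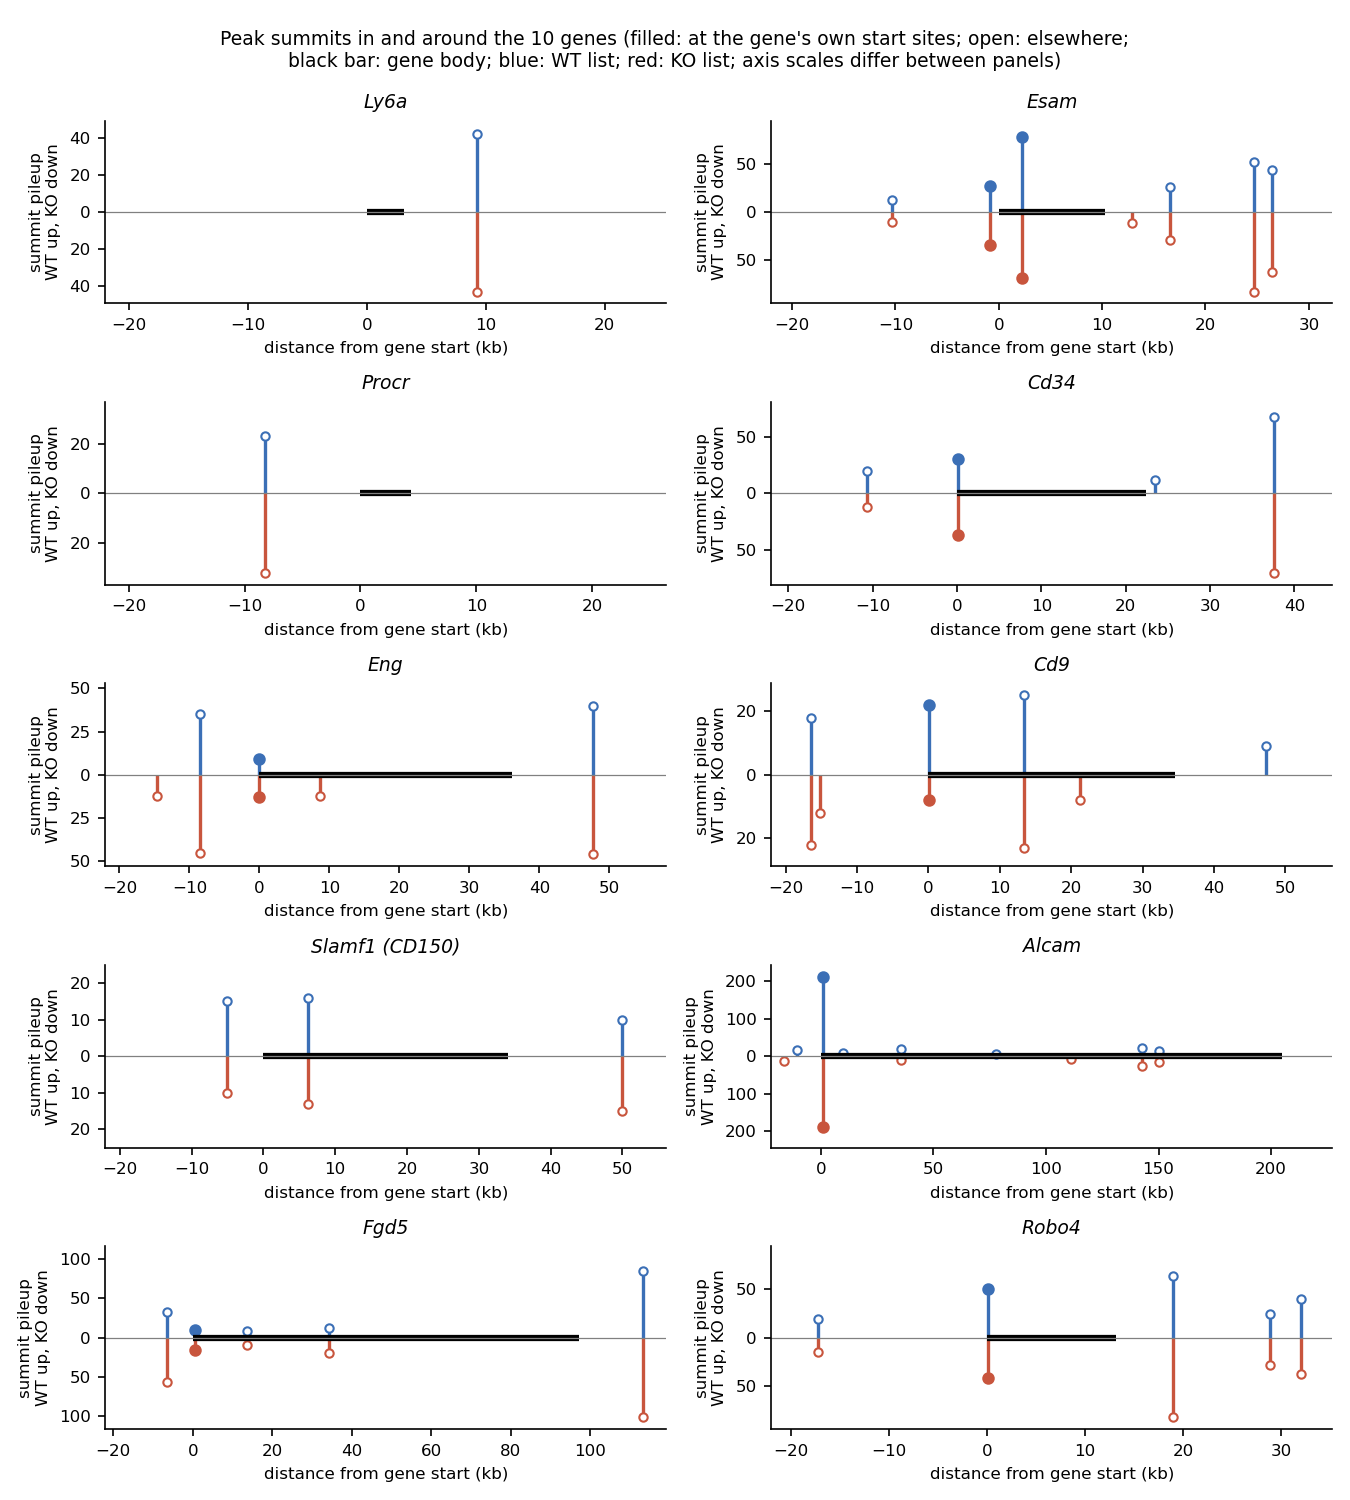
Summit pileup (y axis, reads or fragments, WT upward in blue and KO downward in red) against distance from the gene start in the direction of transcription (x axis, kb) for the 10 genes. Filled points lie at the gene's own start sites and open points elsewhere, and the black bar is the gene body. Ly6a, Procr and Slamf1 show no filled point, and the Alcam start site, at 212 and 188, is the highest of all.

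At other surface genes of stem and progenitor cells, the strongest start-site region of each gene was taken. None was past 1.5-fold higher in KO and 3 were past it lower. Over all 30 promoter regions with a ratio in their windows, 0 were higher and 4 lower. All 19 genes (Kit, Flt3, Tek, Thy1, Cd48, Itga2b, Cd27, Cd38, Cxcr4, Itga6, Prom1, Ly6e, Jam3, Cd82, Cd81, Cd93, Cd244a, Il7r and Bmpr1a) had a start-site peak, that of Il7r in the WT list only. Of 18 ratios, 8 lay above 0, 9 below and 1 at 0.00 (Cd93), and those past 1.5-fold were 0 higher and 3 lower, against 3.95% and 7.99% of all promoter regions. The 3 were Flt3, a cytokine receptor of lymphoid-primed progenitors, with 58 in WT and 36 in KO (-0.77, -1.41 to -0.14), the chemokine receptor Cxcr4 (-0.59, -1.23 to 0.04) and Bmpr1a (-0.60, -1.62 to 0.38). The median of these 18 ratios, 1 region per gene, was -0.04. At the members the median was 0.22 over all 7 start-site regions with a ratio, both regions of Esam included. The 2 medians are therefore not like measures, and no difference is read from them.

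Motif matches in the 200-bp summit windows were compared with those in all regions of the same class. At the 28 distal regions, RUNX matches (TGTGGT) were in 32.1% against 26.0%, E-box matches (CAGCTG or CATCTG) in 28.6% against 27.9%, and GATA matches (AGATAA or TGATAA) in 10.7% against 19.3%. At the 18 promoter regions, ETS matches (CGGAAG) were in 11.1% against 20.3%, E-box matches in 27.8% against 18.6%, and SP matches (GGGGCGGGG) in 22.2% against 13.9%. CEBP matches (TTGCGCAA, TTGCACAA or TTGCATAA) were in 2 of the 18 promoter regions (11.1% against 0.964%) and 2 of the 28 distal regions (7.14% against 1.68%). In windows of 100 or 400 bp the ETS share stayed below and the SP and CEBP shares above that of all regions of the class named. The direction turned for distal RUNX (10.7% against 16.3% at 100 bp), distal E-box (14.3% against 15.3% at 100 bp), distal GATA (39.3% against 34.9% at 400 bp) and promoter E-box (5.56% against 9.68% at 100 bp). At 400 bp promoter E-box matches were in 77.8% against 34.4%, and the distal RUNX and E-box shares were also above those of all distal regions. With so few regions 1 match moves these shares by several percentage points. The median GC content was 62.0% at the promoter regions against 63.0% over all, and 49.2% at the distal regions against 49.0%.

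Values just past the 20-kb limit were as follows. The nearest peak outside a window lay 20.7 kb from the gene at Eng, 21.4 kb at Cd34 and 21.5 kb at Procr, and between 26.3 and 101 kb at the other 7 genes. The near edge of the farthest peak inside a window lay 5.28 kb from the gene at Ly6a and 17.9 kb at Robo4, with the other genes between these values.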

How the data were processed

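The labels name 4 ATAC-seq samples and 1 peak list per genotype. Per the study's methods and the submitters' processing notes, reads were trimmed with Trim Galore, aligned to mm10 with Bowtie2, cleared with Picard of duplicates and of mitochondrial reads, and peaks were called by MACS2 without a fragment model. Each deposited list still held 2 mitochondrial peaks, which were not part of the regions used here. Versions are not given in the sources used here. The deposited lists hold the authors' fold enrichment over local background, −log10 p and −log10 q, and a display score from the authors' caller that was not used. The summit pileup was solved from fold enrichment and −log10 p. For 99.99% of peaks a whole number gave the deposited −log10 p within 0.001. The method was also run on simulated peaks made with the same formulas, which checks the solving step and not the formulas. Depth is unknown.

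Peaks of the 19 autosomes and X were joined into regions with pandas 2.3.3 and GENCODE M21. Ratios have exact 95% binomial intervals (scipy 1.17.1), shares Wilson intervals. Background was the median over the 1000 lowest local values. Motifs were searched as fixed words on both strands. Repeated words were counted over GRCm38.p6.

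Members, gene lists and comparisons were chosen with earlier results of these data known. Named were the start-site and strongest distal region of each gene and every region past 1.5-fold. The only Ly6a region and the upstream Esam region stand in print for the start-site windows planned there, since Ly6a had no start-site peak and the main Esam summit lies in a UTR. One gene of the lists is not reported here.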

Additional observations from a re-analysis of the deposited data

How the results depend on the processing

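No paired analysis was possible because neither genotype has more than 1 list and no peak can be assigned to a replicate. Hence no replicate could be left out. The direction of all 7 ratios past 1.5-fold was kept under every alternative that gave a value. Most alternatives could not have turned it. The window and start-site settings leave a region's ratio as it is, and the raw, background and class scales only shift it by a constant. With −log10 q of at least 10, only the upstream Fgd5 region and the Nrgn start site still gave a value. With overlap of 50%, the start sites of Cd9 and Fgd5 and the intronic Alcam region gave none. With peaks of −log10 q of at least 10, 29 regions were left, with 3 promoter regions in 1 list only, 0 ratios past 1.5-fold lower, 5 genes without a start-site peak and a covered difference of 3645 bases. The KO peaks of the 4 lower ratios, that of Cd9 included, were below that threshold. Counting overlap only from 50% of both peaks gave 7 promoter regions in 1 list only and 2 lower ratios. Matching summits within 100 bp gave 7 promoter and 20 distal regions in 1 list only and 1 higher ratio. With 10 kb on each side there were 29 regions, 6 distal ones in 1 list only and a covered difference of 542 bases. With 50 kb there were 70, 5 promoter ones in 1 list only and 2721 bases. In the gene bodies alone there were 19, with 0 promoter and 5 distal ones in 1 list only, 1 higher and 2 lower ratios, and a promoter median of -0.20. Start sites within 500 bp left 5 genes without a peak, and 2500 bp gave 2 promoter regions in 1 list only. Without centring, 5 ratios (raw pileups) or 7 (over background, where the promoter median was 0.22) were past 1.5-fold higher, since the median of all regions was then 0.08 or 0.17. With the authors' fold enrichment 1 was, and Cd9 stood at -0.94. Of the gene differences in covered bases, those of Cd9, Procr, Cd34, Robo4 and Slamf1 changed sign under at least 1 window or threshold. The cause of the other changes was not tested. Pileups near 10 limit what any single weak region can show.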
